A study of Mus musculus with 23 samples.

Results

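Glucose breakdown and the response to low oxygen were followed here through 34 genes in mammary tumors of PyMT mice, in which the polyoma middle T oncoprotein drives carcinoma. The genes were taken by name from 47643 deposited gene identifiers. They are 2 glucose transporters, 9 genes of upper glycolysis, 5 of lower glycolysis, 5 of lactate and pyruvate handling, 2 regulators of phosphofructokinase, 3 of oxygen sensing and 8 other genes induced by hypoxia. The study asked what loss of IL-38, a cytokine of the IL-1 family, does to these tumors and whether γδ T cells take part. RNA was sequenced from the 3′ end of transcripts (QuantSeq) in 23 whole-tumor libraries, all from female mice on a C57BL/6 background that carried PyMT. In the neutralization experiment, PyMT WT mice received an IgG isotype control (5 libraries) or anti-IL-38 (6 libraries) at 100 µg once a week for 5 weeks, starting at a tumor size of 0.6 cm. In the γδ TCR experiment, mice were treated weekly from an age of 13 weeks for 5 weeks, with 500 µg first and 200 µg afterwards. There, PyMT WT mice received IgG (WT + IgG, 4 libraries), and PyMT IL-38 KO mice received IgG (IL-38 KO + IgG, 4 libraries) or anti-γδ-TCR antibodies (IL-38 KO + anti-γδTCR, 4 libraries). No library of WT mice with anti-γδ-TCR antibodies was analysed here, and IL-38 was missing from the whole animal in the KO mice rather than from one cell type.

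Glycolysis splits glucose into pyruvate in the cytosol, and lactate dehydrogenase turns pyruvate into lactate, which leaves the cell through monocarboxylate transporters. When oxygen is low, the prolyl hydroxylases Egln1 and Egln3 no longer mark HIF-1α for degradation, and HIF-1 binds short DNA motifs near genes of glucose uptake, glycolysis, pH control and survival. Solid tumors are known for both high lactate output and poorly oxygenated regions. Because whole tumors were sequenced, fewer cells of a type and less RNA per cell cannot be told apart in any result below.

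The core motif that HIF binds is written ACGTG or GCGTG, and both strands of the 250 bases before each transcription start were searched, using the RefSeq promoter table on GRCm38.p6. This table held 45 starts of 32 of the 34 genes. The motif stood in 38 of the 45 windows (84.4%), against 38.6% of 32851 windows of all genes, and 51.1% against 16.7% held it at least 2 times, where a palindromic match counts once on each strand. A match describes letters and not binding. The promoters of 5 genes on which the comparisons below turn are shown with the motif in capitals. They are Car9 on chr4:43506776-43507025 (plus strand), Pfkfb4 on chr9:108991652-108991901 (plus), P4ha1 on chr10:59323046-59323295 (plus), Slc16a1 on chr3:104638414-104638663 (plus) and Slc16a3 on chr11:120948817-120949066 (plus).
Car9: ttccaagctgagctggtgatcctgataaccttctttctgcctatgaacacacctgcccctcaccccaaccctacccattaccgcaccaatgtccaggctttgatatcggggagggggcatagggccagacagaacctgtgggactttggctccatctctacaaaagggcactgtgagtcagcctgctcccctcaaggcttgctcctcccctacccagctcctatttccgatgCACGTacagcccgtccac
Pfkfb4: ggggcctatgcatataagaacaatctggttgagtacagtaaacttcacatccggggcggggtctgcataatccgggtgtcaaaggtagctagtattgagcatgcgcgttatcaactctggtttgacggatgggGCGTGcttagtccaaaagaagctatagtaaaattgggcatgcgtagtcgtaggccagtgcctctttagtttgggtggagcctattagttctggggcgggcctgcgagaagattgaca
P4ha1: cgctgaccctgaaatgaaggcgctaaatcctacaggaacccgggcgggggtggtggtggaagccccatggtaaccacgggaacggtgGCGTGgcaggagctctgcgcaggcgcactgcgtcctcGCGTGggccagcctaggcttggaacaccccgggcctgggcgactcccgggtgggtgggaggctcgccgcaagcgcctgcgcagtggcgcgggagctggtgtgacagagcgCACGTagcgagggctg
Slc16a1: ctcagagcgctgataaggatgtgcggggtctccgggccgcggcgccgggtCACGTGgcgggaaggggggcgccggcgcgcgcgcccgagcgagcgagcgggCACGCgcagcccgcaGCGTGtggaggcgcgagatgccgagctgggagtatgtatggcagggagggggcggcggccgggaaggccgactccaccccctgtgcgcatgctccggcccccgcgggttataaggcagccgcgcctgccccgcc
Slc16a3: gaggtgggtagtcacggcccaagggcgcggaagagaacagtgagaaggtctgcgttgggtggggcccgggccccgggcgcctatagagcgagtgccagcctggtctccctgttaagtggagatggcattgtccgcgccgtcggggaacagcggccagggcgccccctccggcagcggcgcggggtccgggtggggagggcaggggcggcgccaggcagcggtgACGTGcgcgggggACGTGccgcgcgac
Car9 and Pfkfb4 have 1 match each, P4ha1 has 3 and Slc16a3 has 2, both of them close to the start. Slc16a1 has 4, of which 2 are the strands of one palindrome. Tpi1 and Gpi1 had no match in this window.

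The libraries held 6273049 to 15879164 reads on genes, and levels are given as CPM, counts per M reads, that is whole reads relative to this total. The limit set by 0 reads is 0.189 to 0.478 CPM, for counting error only. Replicate 4 of IL-38 KO + IgG and all 4 libraries of IL-38 KO + anti-γδTCR carry the numbers 19 to 23 in the deposited column names and stood apart from the other 18. They had the fewest reads (at most 8794202 against at least 10138353), 1.34% to 2.03% of reads on processed pseudogenes against 0.103% to 0.202%, and 11.3% to 20.1% on the transcript Gm42418 against 2.62% to 5.70%. The 5 macrophage markers, all of which had reads, summed to 521 to 839 CPM in them against 1312 to 2758 CPM in the others. Cd68, Adgre1, Csf1r and C1qb were each lower in them than in every other library. C1qa, at 239.8 to 362.1 CPM against 310 to 649 CPM, overlapped. In the γδ TCR comparison these features belong to the treated group and to 1 control, so the calls and the leading values of the blockade and knockout comparisons are also given without that control. Replicate 3 of IL-38 KO + anti-γδTCR was the extreme, with 6273049 reads, 2.03% on processed pseudogenes and 20.1% on Gm42418. Its column name alone carries the mark "rep", which the labels do not explain. Il1f10, the IL-38 gene, had 0 reads in all 23 libraries and could not check the genotype labels, and the 5 epithelial markers of the tumor all had reads in every group, summing to 1311 to 3517 CPM.

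The levels of the members spanned from below 1 to over 1000 CPM. The aldolase gene Aldoa ranged from 438 to 1152 CPM, Pkm (pyruvate kinase) from 421 to 1000 CPM and Ldha (the lactate dehydrogenase that favours lactate) from 328 to 674 CPM. Slc2a1, the main glucose transporter of tumor cells, averaged 54.9 ± 20.1 CPM (SD, n = 5) with IgG, 53.0 ± 12.3 (n = 6) with anti-IL-38, 51.5 ± 11.6 (n = 4) in WT + IgG, 54.6 ± 13.8 (n = 4) in IL-38 KO + IgG and 50.8 ± 6.98 (n = 4) in IL-38 KO + anti-γδTCR. These 5 means lay within 1 SD of each other. Hk2, the inducible hexokinase that traps glucose in the cell, averaged 73.4 ± 16.7, 55.8 ± 10.9, 49.9 ± 6.57, 42.1 ± 5.88 and 28.1 ± 4.01 CPM in the same order of groups. Hk2 thus had its lowest mean with anti-γδTCR, while Hk1, the constitutive hexokinase, had means between 142 and 178 CPM.

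Ldha averaged 442 ± 112, 452 ± 113, 415 ± 58.6, 457 ± 145 and 401 ± 69.4 CPM in that order, a spread between tumors larger than any gap between groups. Hif1a, the oxygen-regulated subunit of HIF-1, averaged 88.3 ± 18.8, 72.4 ± 9.51, 75.4 ± 8.49, 67.8 ± 8.74 and 82.2 ± 10.3 CPM. Egln3, a prolyl hydroxylase that is itself a HIF target, averaged 135 ± 60.8, 91.5 ± 19.3, 98.6 ± 15.6, 130 ± 35.5 and 69.6 ± 24.5 CPM. Neighbouring groups in the order of these levels overlapped for all 3 genes.

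Car9, the membrane carbonic anhydrase that is a common marker of tumor hypoxia, averaged 26.1 ± 19.5, 25.8 ± 7.92, 10.02 ± 4.81, 29.5 ± 20.3 and 7.25 ± 1.41 CPM. Bnip3, a mitophagy receptor, averaged 35.7 ± 15.04, 21.2 ± 4.02, 21.05 ± 3.40, 14.6 ± 3.98 and 10.2 ± 3.28 CPM. Ankrd37, a small HIF target, was near the detection limit, at 0.174 to 4.37 CPM in 22 libraries and 0 reads in IL-38 KO + anti-γδTCR replicate 1, which allows up to 0.375 CPM. Its means were 2.75 ± 1.14, 1.62 ± 0.81, 0.78 ± 0.74, 1.28 ± 1.18 and 0.31 ± 0.34 CPM in the same order of groups, and its fold change with anti-γδTCR, against so few reads, is not given.

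3 enzymes of lower glycolysis that cells usually express at high levels had low levels here. Pgk1 (phosphoglycerate kinase) had 0.475 to 5.90 CPM over the 23 libraries and Pgam1 (phosphoglycerate mutase) 3.41 to 20.2 CPM, and no other annotated transcript matched their 3′ ends. Gapdh had 0.932 to 31.4 CPM, and its last 300 bases matched 126 other genes at 95% identity or more, 122 of them pseudogenes. Reads of Gapdh can be split or lost among such copies, and the copies held 1.35 to 6.21 CPM in 18 libraries and 4.00 to 27.1 CPM in the 5 that stood apart. The levels of Gapdh are therefore uncertain and are given only as counted: 16.2 ± 13.4, 24.6 ± 5.18, 13.99 ± 3.27, 9.99 ± 8.03 and 7.41 ± 2.99 CPM in the same order of groups. Those of Pgk1 were 2.27 ± 1.36, 1.60 ± 1.18, 2.05 ± 0.4996, 2.57 ± 2.21 and 3.48 ± 1.69 CPM.

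**Figure D1:**
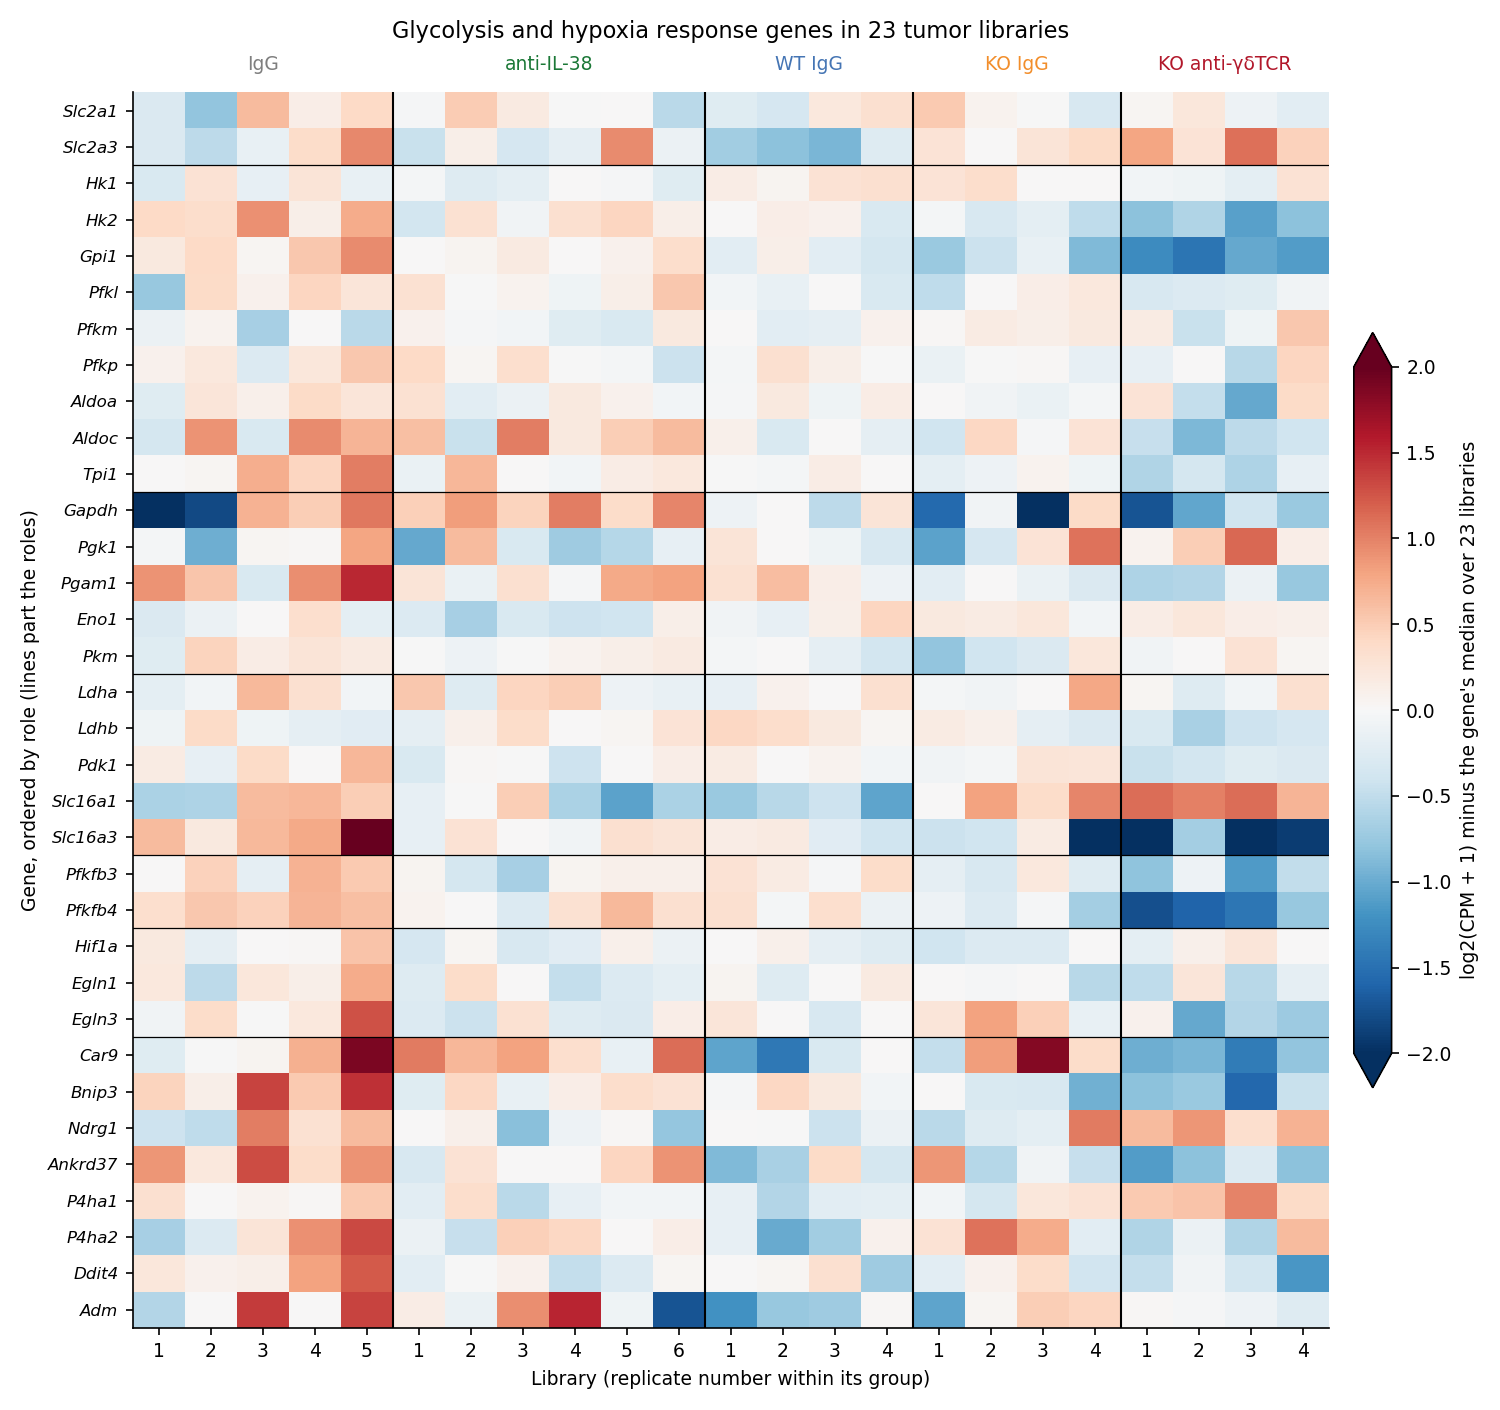
Heat map of the 34 genes (rows, by role) in the 23 libraries (columns, by group and replicate); color is log2(CPM + 1) minus the gene's median over all libraries. IgG replicate 5 is above the median for most rows, and Slc16a3 is low in replicate 4 of IL-38 KO + IgG as in the anti-γδTCR libraries.

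One tumor set the range of many of these genes. IgG replicate 5 had the highest level of all 23 libraries for 14 of the 34 genes, among them Car9, Egln3, Bnip3, P4ha2, Ddit4, Pdk1 and Hif1a, and no other library was highest for more than 3. Slc16a3, the lactate exporter MCT4, had 40.7, 29.7, 41.3 and 44.8 CPM in IgG replicates 1 to 4 and 163 CPM in replicate 5. This library also had the lowest summed epithelial, fibroblast, endothelial and T cell markers of the 23 (1311, 684.7, 52.2 and 0.372 CPM). Its summed neutrophil and proliferation markers were the highest (165.6 and 1343 CPM). The neutrophil sum came almost entirely from S100a8 (161.5 CPM), while S100a9 and Csf3r were the lowest of the IgG group (2.754 and 0.8933 CPM). The part of these markers in the levels above was not tested.

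With anti-IL-38, 26 of the 34 genes had a lower mean than with IgG, and none of them passed the test. The comparison asks whether neutralizing IL-38 for 5 weeks altered the program, and used limma on log2(normalized count + 1) with Benjamini-Hochberg adjustment over 16002 genes. At an adjusted p of 0.05, 0 genes of the whole table were called (0%), and 0 members. An unadjusted p under 0.05 was found for 1682 genes, 3 of them members. With DESeq2 on whole reads 75 genes (0.469%) passed, no member among them, and with edgeR 0. The members had a median log2 fold change of -0.26 beside 0.00 for all genes, which became -0.11 with 23 lower members when IgG replicate 5 was left out. The 5 neutrophil markers, all with reads in both groups, summed to 47.1 to 166 CPM with IgG and 22.02 to 55.2 CPM with anti-IL-38. Most of each sum was S100a8, at 39.38 to 161.5 CPM with IgG and 17.5 to 47.25 CPM with anti-IL-38. S100a9 had 2.754 to 9.815 and 3.353 to 5.251 CPM, and Retnlg, Cxcr2 and Csf3r were at most 3.262 CPM in either group. The epithelial markers had a median sum of 1697 against 2480 CPM and the fibroblast markers one of 1252 against 2297 CPM. For the proliferation markers it was 610 against 481 CPM and for the macrophage markers 2300 against 1922 CPM. Each of these lists overlapped between the groups. The part of these markers in the shift was not tested. By role, 7 of the 8 hypoxia-induced genes, 3 of 3 oxygen-sensing genes and 16 of the 23 genes of glucose and lactate metabolism lay below 0. No member had all treated libraries below all controls, where 0.644% of all genes did, nor all above, where 0.4% did.

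The lowest p belonged to Ddit4, the stress-induced inhibitor of mTORC1 signalling. Ddit4 had 143, 129, 133, 214 and 288 CPM in the 5 IgG libraries, and with anti-IL-38 the lowest, median and highest of 6 were 87.8, 113 and 129 CPM. Every treated library but one lay below every control, and the log2 fold change was -0.59 ± 0.21 (SE, limma adjusted p = 0.423). Bnip3 had 26.3, 20.7, 49.9, 27.8 and 53.7 CPM with IgG and 15.9 to 25.5 CPM (median 22.1) with anti-IL-38. The treated range overlapped that of the controls through IgG replicate 2 alone, with a log2 fold change of -0.62 ± 0.25 (limma adjusted p = 0.432). Slc16a3 had 23.2 to 32.8 CPM (median 28.7) with anti-IL-38, for a log2 fold change of -0.82 ± 0.34 (limma adjusted p = 0.436). Its 6 treated libraries lay below the control median, and its fold change was -0.40 on the log2 scale without IgG replicate 5. Pfkfb3, whose enzyme makes the activator of phosphofructokinase, had a log2 fold change of -0.38 ± 0.18 (limma adjusted p = 0.480). Gapdh, uncertain as said, was 1.48 ± 0.73 above the controls on the log2 scale (limma adjusted p = 0.486), with IgG replicates 1 and 2 at 0.932 and 3.46 CPM and the other 9 libraries at 19.2 to 31.4 CPM. Without IgG replicate 1 the value was 0.68.

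In IL-38 KO tumors, 7 of the 8 genes induced by hypoxia had a higher mean than in WT + IgG, while 14 of the 23 metabolic genes had a lower one. Of the oxygen-sensing genes, Egln3 had a higher mean, and Hif1a and Egln1 had lower ones, as with anti-IL-38. Over all genes tested, 50.6% lay above 0. For Ndrg1, 3 of the 4 KO libraries lay below the WT median although its mean was higher. The comparison asks what life-long absence of IL-38 does to the tumor. limma called 1 of 16563 genes (0.00604%) and no member, and the members' median log2 fold change was 0.03 beside 0.005 for all genes. Before adjustment 2010 genes (12.1%) were under 0.05, 5 of them members. The count model of DESeq2 called 305 genes (1.84%) and 2 members, Slc16a1 (log2 fold change 1.33, adjusted p = 0.00024) and Car9 (1.60, adjusted p = 0.028). Without replicate 4 it called 485 of 16225 genes, and its 2 calls among the members were Slc16a1 and P4ha2. Without replicate 4 of IL-38 KO + IgG, limma called 7 genes (0.0431%) and no member, and 6 of the 8 hypoxia-induced genes had a higher mean. Marker sums also moved between these groups, with all genes of each list read in both. The macrophage markers summed to 1607 to 2166 CPM in WT + IgG and to 659 to 1761 CPM in IL-38 KO + IgG. The median sums of the 5 adipocyte markers were 170.02 and 86.7 CPM and those of the 7 skeletal muscle markers 50.4 and 189 CPM. Their part in these results was not tested.

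Slc16a1 encodes MCT1, a transporter that carries lactate in either direction. It had 20.97, 23.9, 26.5 and 16.6 CPM in WT + IgG and 35.7, 63.0, 46.4 and 71.3 CPM in IL-38 KO + IgG. All 4 KO libraries lay above all 4 WT libraries, and the log2 fold change was 1.29 ± 0.23 (limma adjusted p = 0.156). Without the KO library that stood apart it was 1.13 ± 0.22 (limma adjusted p = 0.0923, and 0.00024 to 0.487 over all alternatives). Slc2a3, a high-affinity glucose transporter, had 0.522, 0.390, 0.307 and 1.05 CPM in WT + IgG and 1.98, 1.47, 1.95 and 2.20 CPM in IL-38 KO + IgG. These groups did not overlap either, at a log2 fold change of 1.74 ± 0.46 (limma adjusted p = 0.230), or 1.66 without replicate 4, and with few reads behind the WT values. Only these 2 members had all KO libraries above all WT libraries, 0 had all of them below, and the same held for 3.66% and 3.41% of all genes.

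P4ha2, a subunit of collagen prolyl hydroxylase, had 8.53, 4.29, 5.61 and 10.3 CPM in WT + IgG and 12.04, 21.8, 16.9 and 8.24 CPM in IL-38 KO + IgG. The lowest KO value was that of replicate 4, and the log2 fold change was 1.04 ± 0.33 (limma adjusted p = 0.286), or 1.28 without it. Car9 had 6.96, 5.15, 12.4 and 15.5 CPM in WT + IgG and 10.9, 28.6, 57.9 and 20.4 CPM in IL-38 KO + IgG, with a log2 fold change of 1.45 ± 0.47 (limma adjusted p = 0.290), or 1.53 without replicate 4. Car9 spread more among KO tumors than among WT tumors, and 3 KO libraries lay above all WT libraries. Bnip3 had 18.6, 25.5, 21.9 and 18.2 CPM in WT + IgG and 18.9, 15.1, 15.1 and 9.28 CPM in IL-38 KO + IgG. Its log2 fold change was -0.53 ± 0.22 (limma adjusted p = 0.381), and -0.34 without replicate 4.

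**Figure D2:**
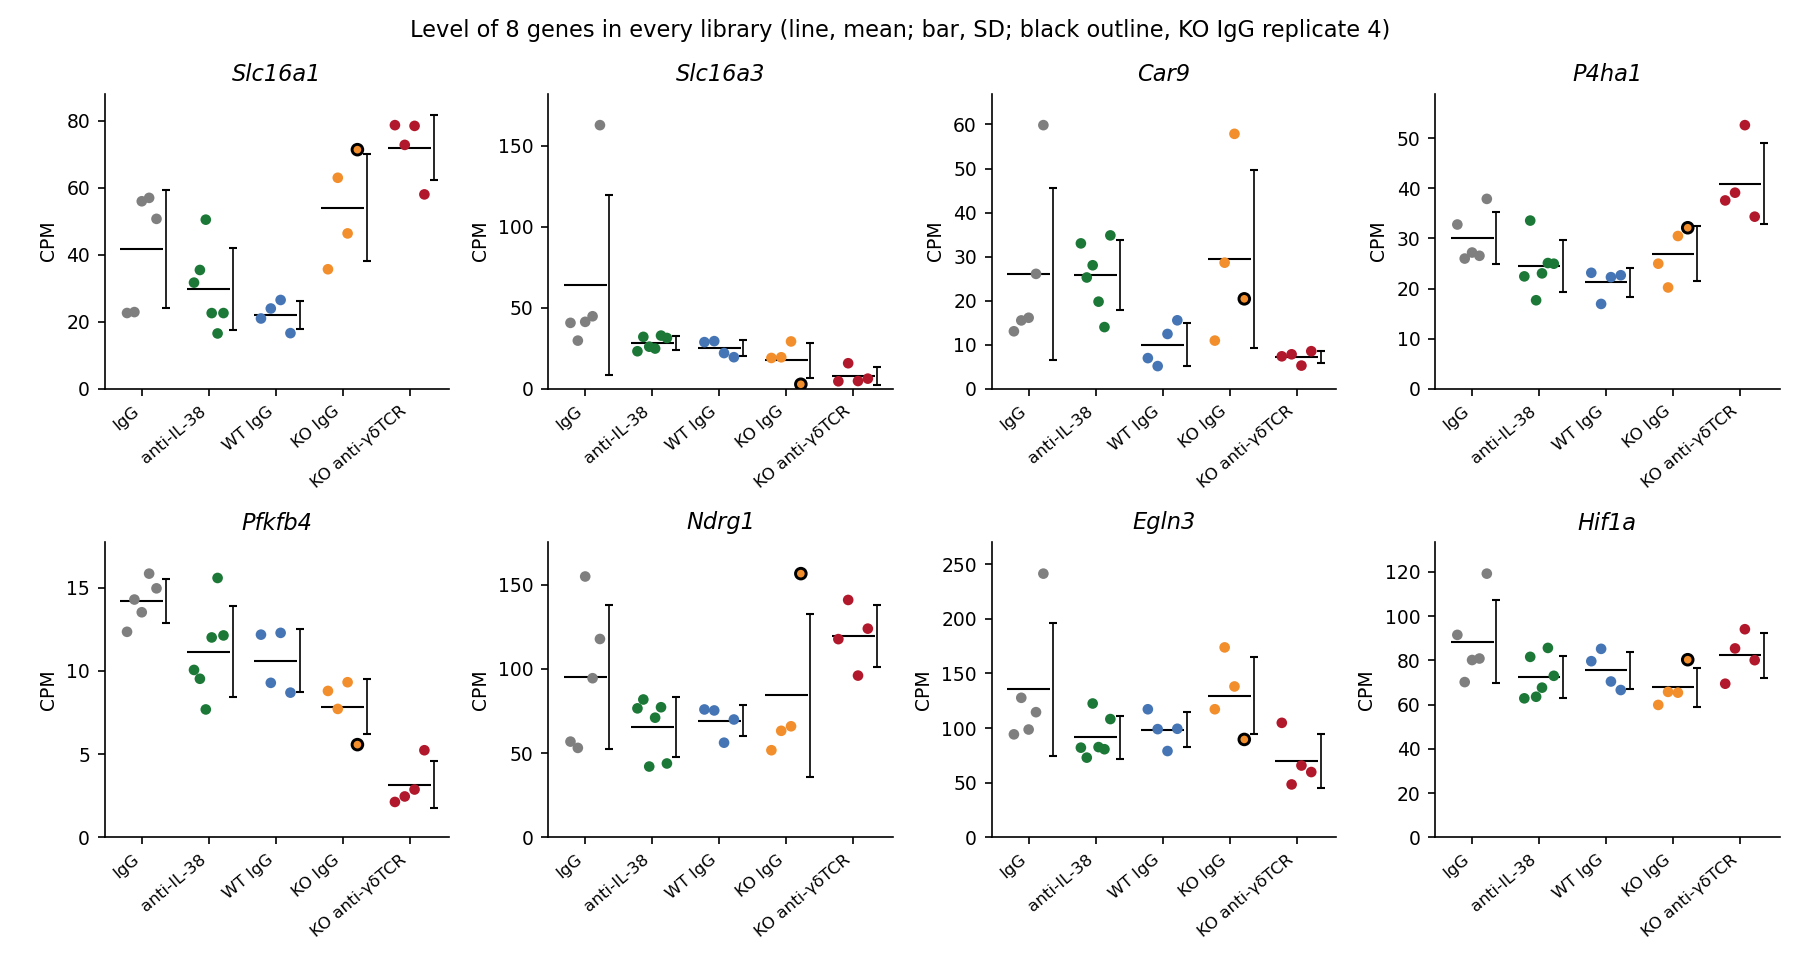
Level in CPM (vertical axes from 0) of 8 genes in every library of the 5 groups; points are libraries, lines means, bars SD, and the outlined point is replicate 4 of IL-38 KO + IgG. Slc16a1 and P4ha1 have their highest means and Pfkfb4 and Car9 their lowest with anti-γδTCR, and the outlined point lies near the anti-γδTCR libraries for Slc16a3 and Ndrg1.

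γδ TCR blockade in IL-38 KO tumors gave members on both sides: Car9, Pfkfb4, Hk2 and Egln3 had lower means and P4ha1 a higher one. With all 8 libraries none of the 34 passed the test, and limma called 0 of 16481 genes (0%) although 3570 genes and 10 members were under 0.05 before adjustment. By DESeq2, 1036 genes (6.29%) and 3 members passed, which were Car9 (-1.87 on the log2 scale, adjusted p = 0.00194), Pfkfb4 (-1.14, 0.0342) and P4ha1 (0.79, 0.0369), and by edgeR 0. The members' median log2 fold change was -0.00 beside 0.02 for all genes, with 17 above and 17 below 0. This split depended on the scaling, as 14 lay above 0 after TMM rescaling and 8 after scaling to the library total, which moved the median of all genes to -0.15. The IL-38 KO + IgG libraries are the same as in the comparison with WT tumors, so the results of the comparisons share their values.

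Car9 had 7.37, 7.83, 5.26 and 8.53 CPM with anti-γδTCR against the IL-38 KO + IgG values above, so that all treated libraries lay below all controls. Its log2 fold change was -1.60 ± 0.42 (limma adjusted p = 0.0674). Pfkfb4, the relative of Pfkfb3 that responds to hypoxia, had 8.80, 7.71, 9.32 and 5.57 CPM with IgG and 2.12, 2.45, 2.87 and 5.23 CPM with anti-γδTCR. The groups did not overlap, at -1.17 ± 0.31 on the log2 scale (limma adjusted p = 0.0695). P4ha1, the other catalytic subunit of collagen prolyl hydroxylase, had 25.0, 20.2, 30.5 and 32.1 CPM with IgG and 37.6, 39.1, 52.6 and 34.3 CPM with anti-γδTCR. It was the only member with all treated libraries above all controls, at 0.78 ± 0.23 on the log2 scale (limma adjusted p = 0.0816).

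Hk2 had 49.0, 40.3, 44.0 and 35.1 CPM with IgG and 28.2, 32.9, 23.1 and 28.0 CPM with anti-γδTCR, for a log2 fold change of -0.41 ± 0.15 (limma adjusted p = 0.131), or -0.47 without replicate 4. Egln3 had 117, 174, 138 and 89.5 CPM with IgG and 105, 48.4, 65.7 and 59.7 CPM with anti-γδTCR, for -0.74 ± 0.27 (limma adjusted p = 0.136). Egln3 overlapped between the groups and Hk2 did not. Over the alternatives the adjusted p of these 5 genes went from 9.4e-05 to 0.320. In all, 3 members had every treated library below every control (4.98% of all genes) and 1 had every one above (4.57%).

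Replicate 4 of IL-38 KO + IgG resembled the treated libraries for many members. It lay outside the range of the other 3 KO libraries for 25 of 34 members (73.5%, beside 61.7% of all genes). For 20 of the 34 (58.8%, beside 38% of all genes) the median of the anti-γδTCR group also lay beyond that range on the same side. Slc16a3 had 19.02, 19.4 and 29.2 CPM in replicates 1 to 3, 2.78 CPM in replicate 4, and 4.62, 15.8, 4.78 and 6.25 CPM with anti-γδTCR. Ndrg1, a gene induced by hypoxia and differentiation, had 51.7, 63.2 and 65.9 CPM in replicates 1 to 3, 156 CPM in replicate 4, and 118, 141, 96.0 and 124 CPM with anti-γδTCR. The 5 libraries numbered 19 to 23 lay below all 18 others for 6 members, namely Hk2, Gpi1, Ldhb, Slc16a3, Pfkfb4 and Bnip3 (5.55% of all genes), and above all others for 0 members (6.7%).

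Without replicate 4, 9 of the 34 members passed the test (26.5%), in a comparison where limma called 2357 of 16480 genes (14.3%). The features of libraries 19 to 23 then coincide with the treatment, so blockade and those features cannot be told apart in these values. In this comparison 5 members rose and 4 fell. Ndrg1 rose by 1.18 ± 0.15 on the log2 scale (limma adjusted p = 0.000263), P4ha1 by 0.89 ± 0.23 (0.0238) and Slc16a1 by 0.80 ± 0.22 (0.0332). Pkm rose by 0.76 ± 0.19 (limma adjusted p = 0.0223), from 421, 557 and 596 CPM in the 3 controls to 696, 734, 892 and 756 CPM, and it shares its 3′ end with 3 pseudogenes that held at most 9.56 CPM. Hif1a rose by 0.56 ± 0.16 (limma adjusted p = 0.0405), from 59.8, 65.7 and 65.4 CPM to 69.4, 85.4, 94.1 and 80.1 CPM. Car9 fell by 1.67 on the log2 scale (SE 0.45, limma adjusted p = 0.0315), Slc16a3 by 1.48 (SE 0.38, 0.0241), Pfkfb4 by 1.30 (SE 0.33, 0.0225) and Egln3 by 0.88 (SE 0.26, 0.0471). Known HIF targets thus stood on both sides, as did the lactate transporters, with MCT1 higher and MCT4 lower.

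In the same fit 6 members had all treated libraries above the 3 controls (14.3% of all genes) and 5 had all below (10.8%). edgeR without replicate 4 called 2379 genes and also 9 members, with Hk2 in place of Hif1a, and DESeq2 called 2873 genes and 11 members, which were the 9 with Hk2 and Gpi1. The macrophage markers summed to 1312, 1425 and 1761 CPM in the 3 controls and to 521 to 839 CPM in the treated libraries. The markers differed: C1qa overlapped, at 332.2, 401 and 418.2 CPM against 239.8 to 362.1 CPM. Cd68 did not, at 177.8, 191 and 247.9 CPM against 21.14 to 42.53 CPM, and neither did Adgre1, Csf1r and C1qb. The 5 proliferation markers, all with reads, summed to 236 to 378 CPM in the treated libraries and to 422 to 596 CPM in all 4 controls, replicate 4 included, so that these groups did not overlap. The part of either marker list in these results was not tested.

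**Figure D3:**
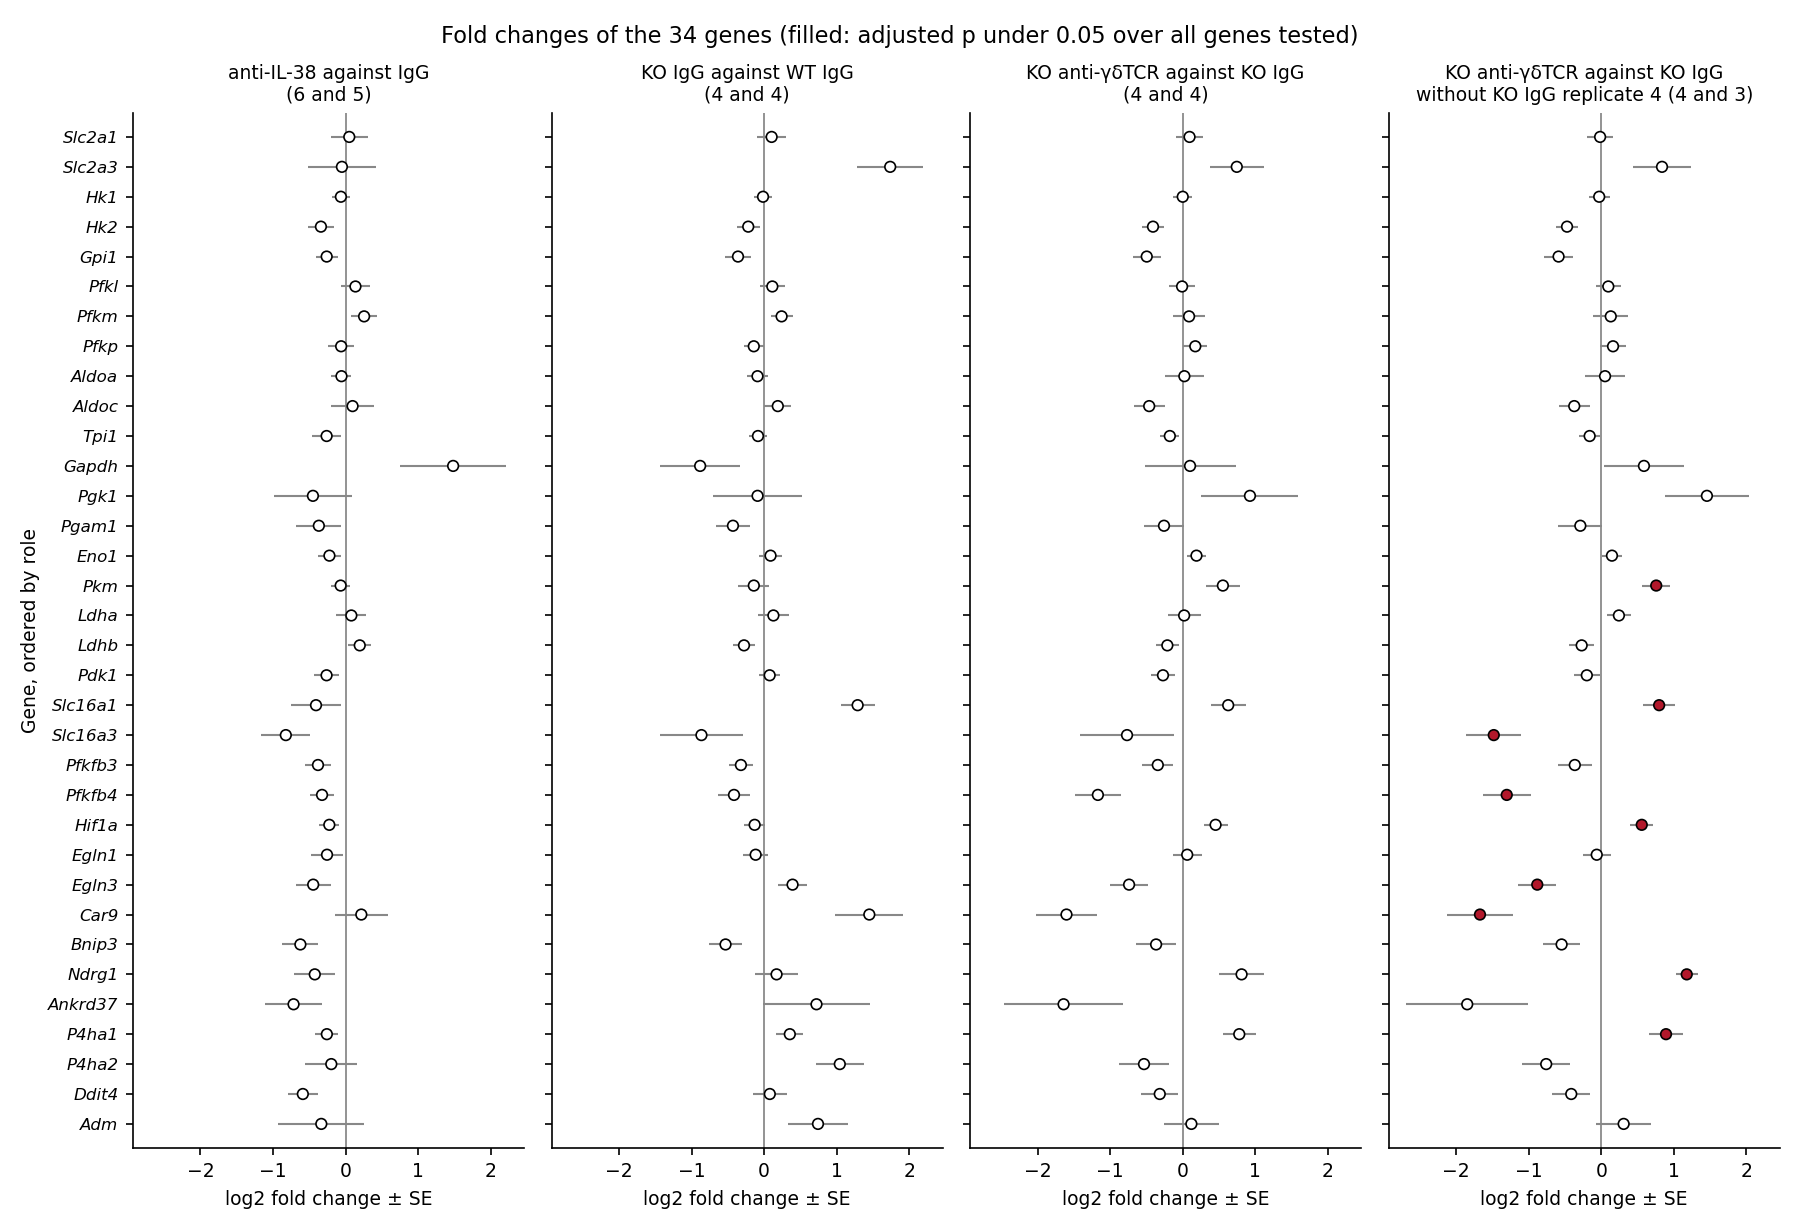
log2 fold change (horizontal axis, with SE) of the 34 genes by limma in 4 panels: anti-IL-38 against IgG, IL-38 KO + IgG against WT + IgG, and IL-38 KO + anti-γδTCR against IL-38 KO + IgG with and without replicate 4 of the latter. Filled points, of which only the last panel has any (9), have an adjusted p under 0.05.

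The effects of the antibody and of the knockout were set against each other in one fit over 19 libraries. The antibody effect came only from the neutralization experiment and the knockout effect only from the γδ TCR experiment. These experiments differed in start, dose and isotype control. A difference between the 2 effects therefore cannot be told apart from one between the experiments. The difference between them (antibody minus knockout) was below 0 for 8 of 8 hypoxia-induced genes and 3 of 3 oxygen-sensing genes, and for 12 of the 23 metabolic genes. No member passed the test of this difference, which called 1 of 16352 genes (0.00612%). An unadjusted p under 0.05 was found for 1255 genes (7.67%), 7 of them members. edgeR called 0 genes and DESeq2 22, again with no member. The smallest p was that of Slc16a1, at -1.70 ± 0.48 on the log2 scale (limma adjusted p = 0.525), with means of 41.8 CPM with IgG, 29.9 with anti-IL-38, 22.0005 in WT + IgG and 54.1 in IL-38 KO + IgG. Next came Slc2a3 at -1.79 ± 0.67, P4ha1 at -0.61 ± 0.24, Egln3 at -0.84 ± 0.34 and P4ha2 at -1.24 ± 0.54 (limma adjusted p from 0.586 to 0.603), each below 0 as well. Without IgG replicate 5, 7 of 8 hypoxia-induced genes and 1 of 3 oxygen-sensing genes were below 0.

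Over both ways of inhibiting IL-38 together (10 libraries against 9), the fits held no term for the experiment. In them limma called 0 of 16352 genes (0%), DESeq2 70 (0.428%) and edgeR 1, and no member was among them. By limma 1725 genes, 4 of them members, had an unadjusted p under 0.05. With the experiment as a term these counts were 2415 and 8, and limma called 1 gene and no member. Pfkfb3 had the lowest p among the members, at -0.35 ± 0.13 on the log2 scale (limma adjusted p = 0.377). Bnip3 was at -0.55 ± 0.23, Slc16a3 at -0.79 ± 0.42, Car9 at 0.77 ± 0.37 and Pfkm at 0.25 ± 0.11 (limma adjusted p from 0.422 to 0.503). For Slc16a3 this became -0.51 without IgG replicate 5 and -0.46 without replicate 4 of IL-38 KO + IgG. Bnip3, Pfkfb3 and Slc16a3 were below 0 with the antibody and in the knockout alike.

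Ratios of related genes within one library do not depend on its scaling, and 10 of them were compared in the antibody, knockout and blockade comparisons by exact permutation (two-sided) of the mean log2 ratio of reads + 1. The ratio of the lactate exporter Slc16a3 to Slc16a1 had the largest mean difference of the 30, between KO and WT. It was 0.46, 0.30, -0.26 and 0.23 on the log2 scale in WT + IgG and -0.90, -1.69, -0.66 and -4.62 in IL-38 KO + IgG. The groups did not overlap, with a mean difference of -2.15 (exact permutation p = 0.0286, the smallest that 4 against 4 can give, and 0.343 after adjustment over the 30 tests), which was -1.27 without replicate 4. With anti-γδTCR this ratio was -4.05, -2.20, -3.99 and -3.19, so that replicate 4 of the KO controls was below all of them.

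The ratio of Slc2a3 to Slc2a1 differed by 1.65 between KO and WT on the log2 scale (exact permutation p = 0.0286, adjusted 0.343), without overlap, and by 1.43 without replicate 4. The ratio of P4ha2 to P4ha1 averaged -2.24 ± 0.84 (SD, n = 4) with anti-γδTCR and -0.94 ± 0.84 (n = 4) in IL-38 KO + IgG (exact permutation p = 0.0571, adjusted 0.343), a difference of -1.31, or -1.65 without replicate 4. That of Pfkfb4 to Pfkfb3 averaged -2.81 ± 0.68 and -2.004 ± 0.26 in the same groups (exact permutation p = 0.0571, adjusted 0.343). Its difference of -0.81 was -0.92 without replicate 4 of IL-38 KO + IgG and -0.54 without replicate 2 of the anti-γδTCR group. None of the 30 ratio tests passed after adjustment, and the 10 with the antibody had adjusted p from 0.619 to 0.874.

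**Figure D4:**
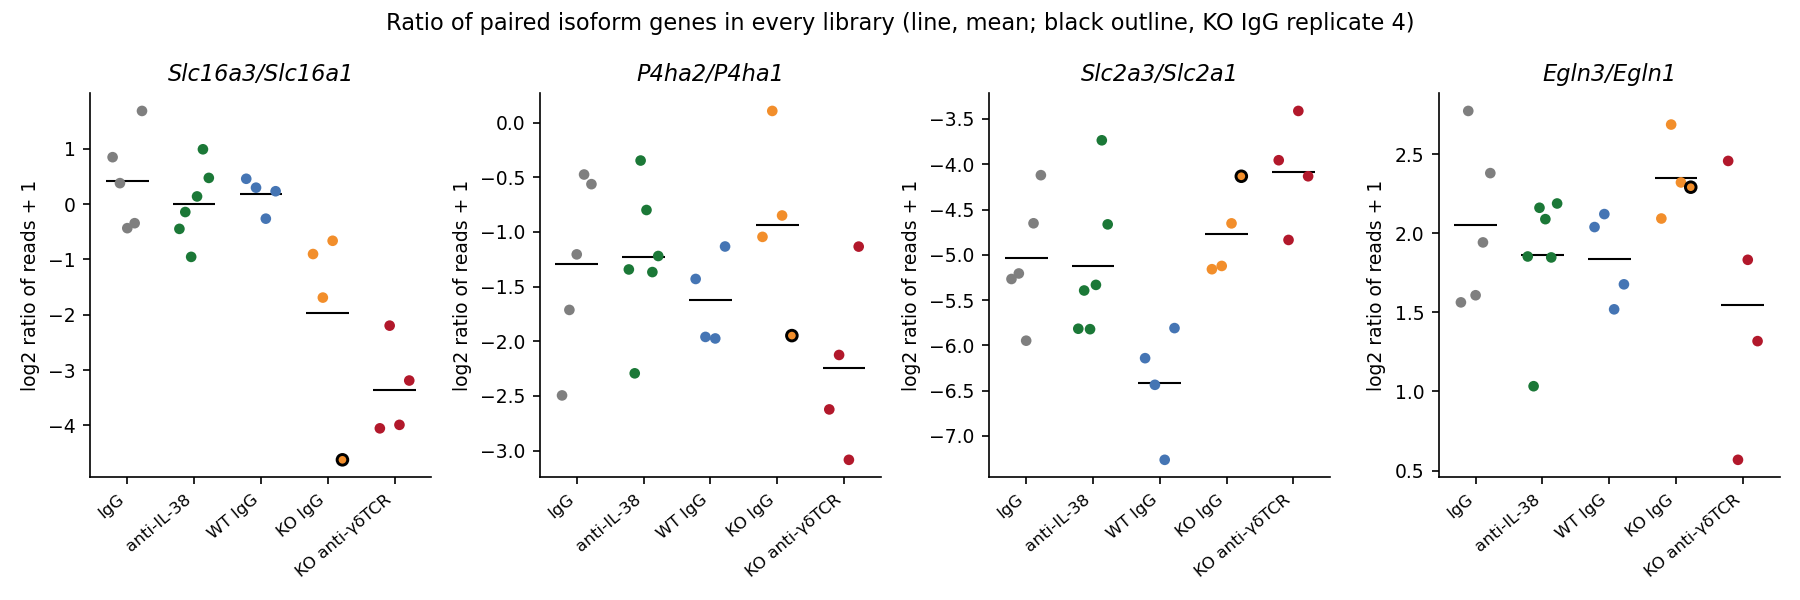
log2 ratio of reads + 1 for 4 pairs of related genes in every library of the 5 groups; lines are means and the outlined point is replicate 4 of IL-38 KO + IgG. The KO libraries lie below the WT libraries for Slc16a3/Slc16a1 and above them for Slc2a3/Slc2a1.

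How much a gene differed between tumors of one group varied widely among the members. The SD within groups of log2 values over 19 libraries was 0.18 for Hk1 and Aldoa, 0.22 for Hif1a and Pfkm, and 0.78 for Car9, 0.85 for Slc16a3, 0.89 for Ankrd37 and 1.02 for Adm, the gene of the vasodilator peptide adrenomedullin. The median over all genes tested was 0.39. Gapdh (1.31) and Pgk1 (1.00), the latter with few reads, were also among the more variable members.

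Many members deviated from their group means in the same tumors, while some pairs deviated in opposite directions. Over the 19 libraries, which share scaling within each column, the median correlation of 561 pairs of members was 0.16 beside -0.00 for all pairs of genes, and 12.7% of member pairs beside 4.62% of all pairs had r above 0.5. Without IgG replicate 5, the member pairs had a median of 0.095 and 7.49% above 0.5. The values over all pairs of genes were not computed for these 18 libraries. The median was 0.26 among the 55 pairs of oxygen-sensing and hypoxia-induced genes, and 0.06 without IgG replicate 5, when 2 instead of 11 of these pairs had r above 0.5. Pairs that kept their correlation without it included Hk2 with Bnip3 (r = 0.82 with and 0.82 without, 19 and 18 libraries), Pfkl with Pkm (0.79 and 0.79) and Pgk1 with Hif1a (0.77 and 0.76). Negative correlations were kept as well, as for Hk2 with Pfkm (-0.76 and -0.74), Pfkm with Bnip3 (-0.75 and -0.70) and Hk1 with Pdk1 (-0.60 and -0.61). These pairs were chosen after their values were seen, and each r is a description over these libraries.

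The remaining members are given by their log2 fold changes. Aldoc, Tpi1 and Eno1 had log2 fold changes between -0.46 and 0.19 in the antibody, knockout and blockade comparisons, and those of Pfkl, Pfkm and Pfkp lay between -0.14 and 0.26. Gpi1, the isomerase after hexokinase, was at -0.26, -0.36 and -0.50 in these 3 comparisons, and Pdk1, which holds pyruvate back from mitochondria, at -0.26, 0.08 and -0.27. Ldhb, which favours pyruvate, was at 0.20, -0.28 and -0.21, and Egln1, the main oxygen sensor, at -0.25, -0.12 and 0.06. Pgam1 was at -0.37, -0.43 and -0.26, and Adm at -0.33, 0.74 and 0.12, none of them past the threshold. Without replicate 4 of IL-38 KO + IgG, Adm was at 0.56 in the knockout and 0.31 in the blockade, and Gpi1 at -0.26 and -0.59.

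Further genes of both pathways that are not among the 34 were counted in the same fits. Of 35 listed genes of glycolysis and pyruvate use, 29 passed the filter on low values, and of 40 listed hypoxia genes 38 did. None of them was called with anti-IL-38 (18 of 29 and 19 of 38 above 0), in the knockout (16 and 20) or with blockade over 8 libraries (15 and 20). Without replicate 4, blockade gave 3 calls among the 29 and 6 among the 38, in a fit that called 14.3% of all genes, so these counts are near that share and are no result about the lists. Their values were as follows. Hk3, a hexokinase of myeloid cells, fell by 2.68 on the log2 scale (limma adjusted p = 0.00152), and Hmox1, heme oxygenase 1, which macrophages express, by 2.41 (0.00134). Arnt2 fell by 1.52 (0.0332) and Plod2, a collagen lysyl hydroxylase, by 0.79 (0.0268). Epas1, which encodes HIF-2α, rose by 1.35 (0.000149), as did Mxi1 by 0.98 (0.0054), Egln2 by 0.90 (0.0182), Mpc1 of the mitochondrial pyruvate carrier by 1.05 (0.0287) and the gluconeogenic Fbp1 by 2.51 (0.0115). Vegfa, the angiogenic HIF target, was at -0.34 ± 0.28 with all libraries (limma adjusted p = 0.542).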

How the data were processed

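Single reads of 75 cycles from QuantSeq 3′ libraries were processed by the authors through BlueBee Genomics' QuantSeq workflow, and the submitters' notes name STAR, HTSeq, DESeq2 and GRCm39 without roles. What was deposited is a signal, namely read counts that the authors divided by 1 size factor per library (normalized counts), in a table of 19 libraries and one of 8. The 4 IL-38 KO + IgG libraries stand in both with identical reads for 47643 of 47643 genes. Whole reads were recovered for 100% of values within 0.0001%; in WT + IgG replicate 1 a read was worth so close to 1 that rounding cannot be told from this.

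Names and types came from GENCODE M21 on GRCm38, a build other than GRCm39, and 47224 of 47643 identifiers matched. The 34 genes, the lists and the tests were chosen with earlier results of these data known. Named in full were the 5 members with the smallest p in each comparison and those past the threshold (8 at most, to which Egln3 was added after its value was seen), and 10 members were given in every group.

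Genes averaging 5 or more normalized counts over the libraries compared were tested with limma 3.58.1 (R 4.3.3, eBayes with trend, two-sided) on log2(normalized count + 1), which understates the change of low genes, with Benjamini-Hochberg adjustment over all genes and a threshold of 0.05. Only the libraries compared entered a fit, except for the difference of effects (19 libraries). Adjusted p-values are limma's unless another tool is named. All 34 members passed the filter in each comparison. Alternatives were pseudocounts of 0.5 and 5, no filter or a mean of at least 20, TMM and CPM scaling, edgeR 4.0.16 and DESeq2 1.42.0 on whole reads, blocks for replicate numbers, a term for the experiment in the pooled comparison, and leaving out libraries singly. Copies were matched with blastn 2.17.0. The fits were also run on simulated counts with known changes. These had the same dispersion (0.05) for every gene and no tumors or libraries that stood apart, so they cannot show how the fits behave on these tumors. Nothing states that replicates are separate animals, so p-values measure only the spread between these samples. Libraries of one group all differed by more than sampling noise (chi-square per degree of freedom 15.9 to 125).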

Additional observations from a re-analysis of the deposited data

Results flagged for a closer look

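Within groups of 4 to 6 libraries, 11 of 170 sets of values (34 genes in 5 groups) had one library whose CPM lay far from the others by Dixon's criterion, which chance gives for about 1 set in 20. The 11 sets concern 10 genes.

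3 of them belong to IgG replicate 5: Slc16a3 at 163 CPM (others 29.7 to 44.8), Egln3 at 241 CPM (others 94.2 to 128) and Car9 at 59.8 CPM (others 13.05 to 26.1). In the same group, Ldhb in replicate 2 was at 49.7 CPM against 32.3 to 35.9 CPM.

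Another 3 belong to replicate 4 of IL-38 KO + IgG: Ldha at 674 CPM (others 377 to 394), Ndrg1 at 156 CPM (others 51.7 to 65.9) and Egln1 at 18.2 CPM (others 26.9 to 27.6). This is the library with the sequencing features of the anti-γδTCR group.

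With anti-IL-38, Slc2a3 in replicate 5 was at 3.75 CPM against 0.820 to 1.66 CPM, and Tpi1 in replicate 2 at 154 CPM against 88.2 to 113 CPM. With anti-γδTCR, Slc16a3 in replicate 2 was at 15.8 CPM against 4.62 to 6.25 CPM. In WT + IgG, P4ha1 in replicate 2 was at 16.9 CPM against 22.3 to 23.1 CPM.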

How the results depend on the processing

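The log2 fold changes of the members with the smallest p (5 in each of the antibody, knockout, blockade and pooled comparisons) kept their direction in all of their alternatives, and 21 of 444 such values passed 0.05, all in the knockout or blockade comparison. The count of members called stayed at 0 in all alternatives of the antibody, pooled and difference fits. In the knockout it was 2 with DESeq2 with or without IL-38 KO + IgG replicate 4. In the blockade it was 3 with DESeq2, 9 without that library in limma and in edgeR and 11 without it in DESeq2, and 0 to 9 over single libraries left out. Counts of genes called were 75 (antibody), 305 (knockout), 1036 (blockade) and 70 (pooled) in DESeq2, and 485, 2873 and 83 without replicate 4 in the last 3. edgeR gave 0 in the knockout and 1 in the pooled comparison, and without replicate 4 it gave 10 in the knockout and 2379 in the blockade. The experiment as a term gave 1 in the pooled comparison. With single libraries left out, genes called ranged from 0 to 6 (antibody, 6 without IgG replicate 3), 0 to 7 (knockout, 7 without replicate 4 of IL-38 KO + IgG and without WT + IgG replicate 3, 4 without KO replicate 1), 0 to 2357 (blockade) and 0 to 23 (pooled, 23 without IgG replicate 3), and the cause was not tested. Replicate numbers did not pair the samples, as the 13 correlations of deviations between same-numbered libraries ranged from -0.169 to 0.0765; with a replicate block, genes called were 1 (antibody), 0 (knockout), 0 (blockade) and 0 (pooled), and members 0. No ratio passed in any alternative. The alternatives without replicate 4 in edgeR and DESeq2, and those of the difference of effects, were chosen after seeing the data. The members' median moved most in 4 knockout alternatives (-0.049 to -0.034, beside 0.031 in the main fit) and 5 blockade alternatives (-0.180 to -0.104, beside -0.004). In the knockout it thus changed sign. Leaving out single libraries alone gave medians of -0.034 to 0.047 in the knockout and -0.153 to -0.026 in the blockade. Depth limits Ankrd37, Pgk1 and Slc2a3 most.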
